A study of Mus musculus with 6 samples.

Results

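The enzymes that carry pyruvate into mitochondria, turn the tricarboxylic acid (TCA) cycle and break down fatty acids were followed as 42 genes in acinar cells taken from mouse pancreas, which make and store digestive enzymes. The genes were taken by symbol from the 23237 symbols of the count tables: 11 act on pyruvate, 13 in the TCA cycle and 18 in mitochondrial beta-oxidation. Each of the 42 stood on a single row, and all 42 passed the filter on low counts, among 13132 tested rows. Libraries were 3' tag libraries, which read a tag near the poly(A) tail of each transcript. The groups were 3 control libraries of genotype wild type and 3 libraries of genotype ERRgamma -/-, labelled as a conditional knock-out (cKO) of estrogen-related receptor gamma, a nuclear receptor encoded by Esrrg. Both groups were of strain C57BL/6J and were kept in Waymouth's medium with serum, antibiotics, a trypsin inhibitor and epidermal growth factor. The sources used here do not give the promoter that drives the deletion, the part deleted, the time in culture, or the age, sex and number of animals. Libraries are numbered within each group and nothing says that they came from separate animals, so each p-value measures only how far these libraries spread, and that spread may be technical.

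Pyruvate made by glycolysis crosses the inner mitochondrial membrane through a carrier and is turned into acetyl-CoA by the pyruvate dehydrogenase complex, which pyruvate dehydrogenase kinases switch off by phosphorylation. Fatty acids enter as carnitine esters and are shortened in repeated rounds of oxidation, hydration, oxidation and cleavage, which also give acetyl-CoA. The TCA cycle oxidises acetyl-CoA and passes the electrons to the respiratory chain. Receptors of the ERR family are known as regulators of genes in these pathways, and acinar cells spend much of the resulting ATP on protein synthesis and secretion.

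Library totals ran from 15.2 to 25.2 M counts (M, mega), and the digestive enzyme genes took 83.2 to 84.8% of the control counts against 20.3 to 53.1% of the cKO counts. The effective library sizes after TMM scaling, which centres the bulk of genes near no change, were 7.53 to 8.50 M in control and 33.2 to 60.0 M in cKO. Levels are therefore given as CPM (counts per M of the effective size), and "rose" and "fell" mean relative to the bulk of genes, with an edgeR quasi-likelihood p, adjusted over all tested genes, under 0.05. The median log2 fold change of all tested genes was 0.10 on this scale and 3.36 on library totals. Esrrg had no count in any control library, and cKO replicates 1, 2 and 3 gave 0, 9 and 1 tags, so the tags give no check of the genotype. Markers of other cells moved with the groups. All 12 acinar markers fell (summed level 501890 to 588263 CPM in control, 16818 to 83342 in cKO), among them the chymotrypsinogen gene Ctrb1 (log2 fold change -3.68) and the elastase gene Cela1 (-3.41). The size of this fall rests on the scale. On library totals 3 of the 12 were above 0, and Ctrb1 (-0.74, adjusted p = 0.114) and Cela1 (-0.50, adjusted p = 0.264) did not pass. As a share of all counts the 12 took 16.9 to 18.3% in control and 6.59, 16.3 and 8.68% in cKO replicates 1 to 3. Of 9 fibroblast and stellate cell markers 8 rose (725 to 819 CPM against 3583 to 5113), with the collagen genes Col1a2 (2.37) and Col3a1 (2.71) most abundant, and all 8 macrophage markers rose (70.6 to 89.7 against 214 to 442 CPM), with Csf1r (2.31) and Lyz2 (1.57) most abundant. Of 7 tested duct markers 4 fell and 2 rose (200 to 241 against 104 to 118 CPM; Sox9 -1.82, Spp1 -0.15), of 6 endothelial markers 2 fell and 1 rose (29.3 to 32.9 against 14.2 to 21.8 CPM; Kdr -1.37, Pecam1 -0.55), and of 6 islet markers 1 fell (563 to 909 against 397 to 818 CPM; Ins2 -0.050, Ins1 -0.28). Of the 6 adipocyte markers 2 passed the filter (summed level 25.1 to 42.4 CPM against 16.3 to 29.1): Fabp4 was at -0.66 (adjusted p = 0.0323), and Cfd gave 0, 0 and 3 tags in control against 25, 20 and 24 in cKO. The Fabp4 call was lost without control replicate 1 (adjusted p = 0.153), control replicate 3 (0.132) or cKO replicate 1 (0.0917). Lep was at 0 in all libraries and Cidec in all control libraries. The part of these other cells in the results below was not tested, and in bulk RNA fewer cells of a type and less RNA per cell cannot be told apart.

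Promoter sequences were available from RefSeq (GRCm38.p6) for 39 of the 42 genes, as windows from 250 bases before to 50 bases after each start. They were searched on both strands for the extended half-site that ERR receptors bind, TNAAGGTCA, and for its core AAGGTCA, which lies within it. None of the 39 genes held TNAAGGTCA, which 1.43% of 27025 symbols held, and 2 (5.13%) held the core, against 5.38% of all symbols. The direct repeat of AGGTCA with 1 base between the copies, the type of site bound by PPAR receptors, was held by 0 of the 39 genes and by 0.0481% of symbols. The palindromic motif of NRF1, a regulator of mitochondrial genes, was in 4 genes (10.3%, against 5.19% of symbols), namely Dld, Etfb, Etfdh and Sucla2. The ETS-type letters CCGGAAG were in 5 (12.8%, against 9.93%), namely Cpt2, Dlst, Idh3b, Idh3g and Mpc1. The shares of symbols were taken over all symbols with a window, tested or not, while all 42 genes were tested. The stretches of the 2 genes with the core, and of Etfdh as the electron-transfer gene whose fall is described below, are shown from 250 bases before the start to 10 after it, with the matched letters in capitals (AAGGTCA reads TGACCTT on the opposite strand). They lie at chr3:153944634-153944893 (Acadm, minus strand), chr11:6291920-6292179 (Ogdh, plus strand) and chr3:79628758-79629017 (Etfdh, minus strand). The match begins at position -249 in Acadm, -5 in Ogdh and -128 in Etfdh, where the start is position 1 and there is no 0.
Acadm: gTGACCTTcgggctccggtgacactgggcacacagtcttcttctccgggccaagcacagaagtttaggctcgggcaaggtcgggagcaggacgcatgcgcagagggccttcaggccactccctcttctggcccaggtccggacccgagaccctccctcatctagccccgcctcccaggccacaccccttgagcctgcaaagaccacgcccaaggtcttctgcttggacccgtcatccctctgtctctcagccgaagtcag
Ogdh: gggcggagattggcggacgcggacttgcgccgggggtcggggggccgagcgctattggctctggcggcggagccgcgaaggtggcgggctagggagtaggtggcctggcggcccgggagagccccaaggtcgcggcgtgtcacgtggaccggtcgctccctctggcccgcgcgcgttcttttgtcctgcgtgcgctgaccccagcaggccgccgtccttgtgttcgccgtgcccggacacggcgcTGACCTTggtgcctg
Etfdh: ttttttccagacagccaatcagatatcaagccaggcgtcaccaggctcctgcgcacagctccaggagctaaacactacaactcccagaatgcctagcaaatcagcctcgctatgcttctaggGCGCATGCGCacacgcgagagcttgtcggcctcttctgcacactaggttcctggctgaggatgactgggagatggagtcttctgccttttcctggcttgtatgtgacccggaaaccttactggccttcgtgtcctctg
A match describes letters and is not a binding site. In the cKO libraries Acadm had a log2 fold change of -0.43 (adjusted p = 0.177) and Ogdh of -0.44 (adjusted p = 0.0325).

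Of the 42 genes, 25 fell and 2 rose in cKO, against 20.7% of all tested genes called lower and 24.0% called higher. The median log2 fold change was -0.59. The pathways differed in their counts: 8 of 11 pyruvate genes fell (median -1.21), 11 of 13 TCA cycle genes fell (median -0.63), and 6 of 18 beta-oxidation genes fell while 2 rose (median -0.19). The libraries of the groups did not overlap for 32 of the 42 genes, against 56.2% of all tested genes, with cKO lower in 28 of these and higher in 4. DESeq2 made 25 calls lower and 2 higher, all shared with edgeR. The scale decides the direction of most of these calls. On library totals 0 of the 42 genes were called lower and 41 higher, as were 12653 of all tested genes. With counts outside the digestive enzymes, Rn45s and Casp9 as the library size, 7 of the 42 were called lower and 12 higher. Of all 13132 tested genes, 1003 were called lower and 7103 higher on that scale. Pcx, Pdk1, Mpc2, Suclg2, Suclg1, Idh2 and Hadh were the 7, and Acot2 and Acadl were among the 12. Measured from the median of all tested genes, the 3 medians were -1.31 (pyruvate), -0.72 (TCA cycle) and -0.29 (beta-oxidation) on the TMM scale and -1.35, -0.73 and -0.29 on library totals. A change of scale moves all genes nearly alike and cancels in this subtraction, so the 2 scales could hardly differ. With only genes of at least 10 CPM in 3 libraries (30 of the 42), the values were -1.06, -0.45 and 0.16.

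**Figure D1:**
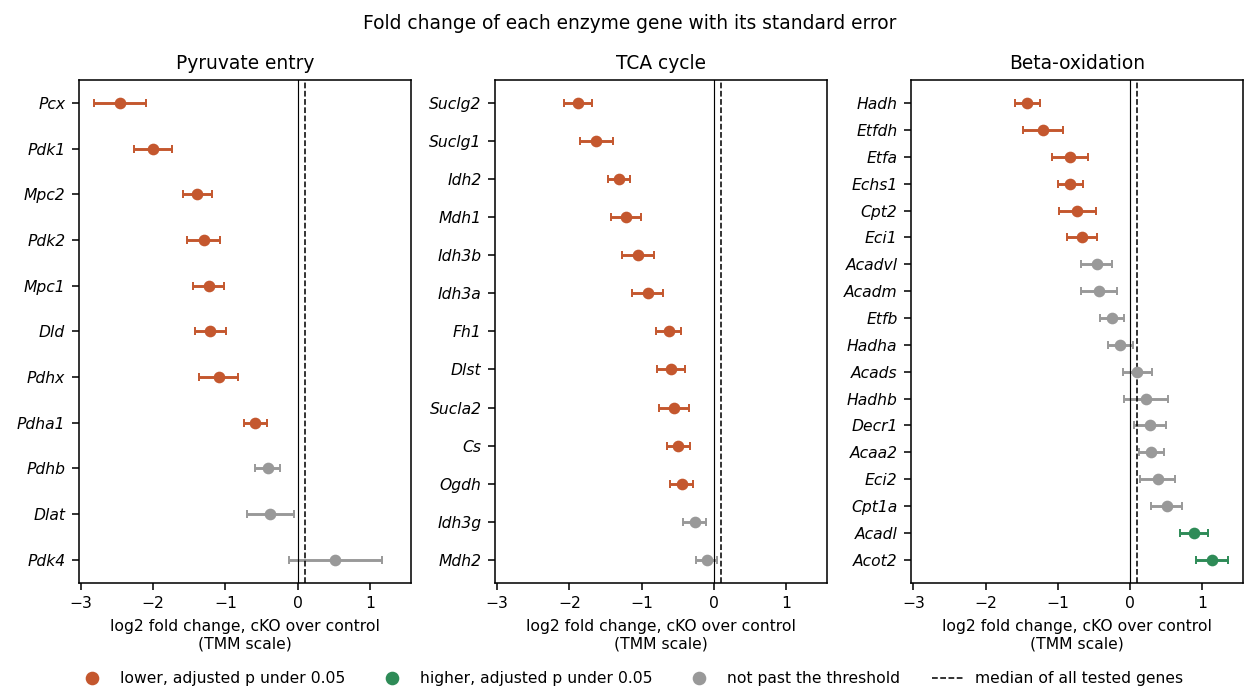
Log2 fold change (cKO over control, TMM scale) of each of the 42 genes with its standard error, 1 panel per pathway. Points past an adjusted p of 0.05 are coloured by direction. The pyruvate and TCA cycle panels lie almost wholly left of the dashed median of all tested genes (0.10), while the beta-oxidation genes run from -1.42 (Hadh) to 1.14 (Acot2).

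Of the 11 pyruvate genes, Pcx, Pdk1, Mpc2, Pdk2 and Mpc1 had the lowest fold changes, in that order. Mpc1 and Mpc2 encode the paired subunits of the mitochondrial pyruvate carrier. Mpc2 (chromosome 1, 165460637 to 165481214, GRCm38) stood at 45.4, 36.4 and 36.4 CPM in control replicates 1 to 3 and at 10.9, 19.3 and 15 CPM in cKO replicates 1 to 3. Mpc1 stood at 15, 13.2 and 11.2 CPM in control and 5.32, 6.30 and 5.15 CPM in cKO. Every cKO library was below every control library for both genes, with log2 fold changes of -1.39 ± 0.20 (SE, n = 3 and 3; adjusted p = 6.75e-05) and -1.23 ± 0.21 (adjusted p = 0.000249), or 2.62- and 2.35-fold lower.

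Of the 5 genes of the pyruvate dehydrogenase complex, Pdha1, Dld and Pdhx fell, and Pdhb and Dlat did not pass. Pdha1, the catalytic E1 alpha subunit, was 28.8, 30.2 and 27.8 CPM in control and 18.2, 21.8 and 17.8 CPM in cKO. Its groups did not overlap and it fell by 0.59 ± 0.16 on the log2 scale (adjusted p = 0.00757), a call lost without cKO replicate 3 (adjusted p = 0.0538). Its partner Pdhb (E1 beta) had a fold change of -0.41 ± 0.17 (adjusted p = 0.0613) and Dlat, the E2 core, of -0.38 ± 0.33 (adjusted p = 0.373), and neither passed. Dlat was low in control replicate 1 (3.06 CPM, against 6.59 and 7.74), and its fold change was -0.68 without that library and -0.12 without control replicate 3. Dld, the E3 subunit that this complex shares with 2-oxoglutarate dehydrogenase, fell from 17.3 ± 3.09 to 7.52 ± 1.70 CPM (SD, n = 3 each; log2 fold change -1.21 ± 0.22, SE). Pdhx, which binds E3 to the core, fell from 6.65 ± 1.24 to 3.12 ± 0.361 CPM (-1.09 ± 0.27).

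The kinases that inactivate this complex did not share a pattern. Pdk1 (chromosome 2, 71873224 to 71903858) was 18.5, 12.6 and 18.5 CPM in control and 2.69, 5.58 and 4.18 CPM in cKO. Pdk2 was 12, 16.9 and 15.9 CPM in control and 5.67, 7.66 and 4.92 CPM in cKO. Both fell without overlap, Pdk1 by 2.0 ± 0.27 (4.01-fold; adjusted p = 3.58e-05) and Pdk2 by 1.30 ± 0.23 (adjusted p = 0.00029). Pdk4, the isoform induced by fasting in many tissues, was thinly counted, at 2, 6 and 6 tags in control against 44, 25 and 61 in cKO. As CPM these overlapped, at 0.266, 0.706 and 0.762 against 0.741, 0.753 and 1.02, and its fold change of 0.52 ± 0.64 did not pass (adjusted p = 0.536).

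Pcx, pyruvate carboxylase, makes oxaloacetate from pyruvate and so refills the TCA cycle. It lies on chromosome 19 (4510472 to 4621752) and had the lowest fold change of the 42 genes. It was counted 45, 36 and 53 times in control and 80, 27 and 53 times in cKO, which are 5.98, 4.24 and 6.73 CPM against 1.35, 0.814 and 0.883 CPM. The raw counts overlap and the CPM do not, so the size of the fall (-2.46 ± 0.36, 5.49-fold; adjusted p = 7.06e-05) rests on the effective library sizes. On library totals its fold change was 0.85, the lowest of the 42.

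Of the 13 TCA cycle genes, Suclg2, Suclg1, Idh2, Mdh1 and Idh3b had the lowest fold changes, in that order, and Idh3g and Mdh2 did not pass. Cs, citrate synthase, joins acetyl-CoA to oxaloacetate. It was 28.0, 22.7 and 23.4 CPM in control and 17.0, 18.2 and 17.6 CPM in cKO, without overlap, and fell by 0.49 ± 0.16 (adjusted p = 0.0237). That call was lost without control replicate 1 (adjusted p = 0.0987), cKO replicate 1 (0.0641) or cKO replicate 3 (0.0867).

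Of the 4 isocitrate dehydrogenase genes among the 42, Idh2, Idh3a and Idh3b fell and Idh3g did not pass. Idh2, the mitochondrial NADP-dependent enzyme (chromosome 7, 80094846 to 80115392), was 54.2, 48.0 and 49.9 CPM in control and 18.5, 22.2 and 20.6 CPM in cKO. The groups were far apart for their spread, with a log2 fold change of -1.31 ± 0.15 (adjusted p = 9.92e-06). Of the NAD-dependent enzyme, Idh3b, a regulatory subunit, was 21.3, 12.9 and 14.2 CPM in control and 7.39, 7.20 and 8.70 CPM in cKO (-1.05 ± 0.22). The catalytic subunit gene Idh3a fell by 0.92 ± 0.22, and the regulatory subunit gene Idh3g, at 22.9 ± 1.54 and 19.1 ± 1.37 CPM (SD, n = 3 each), did not pass (-0.26 ± 0.16; adjusted p = 0.201). In libraries thinned to the same effective size Idh3g passed narrowly (-0.44; adjusted p = 0.0497).

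Ogdh and Dlst encode the E1 and E2 subunits of the 2-oxoglutarate dehydrogenase complex. Ogdh was 29.5, 37.0 and 34.7 CPM in control and 26.9, 24.5 and 22.9 CPM in cKO, close to each other but without overlap (-0.44 ± 0.16; adjusted p = 0.0325). Its call was lost without control replicate 2 (adjusted p = 0.130), control replicate 3 (0.0926) or cKO replicate 3 (0.152), in the replicate block fit (0.0566) and with no filter on low counts (0.0681). Dlst fell by 0.59 ± 0.20 (adjusted p = 0.0235). It lost its call without control replicate 1 (0.0530), control replicate 3 (0.106), cKO replicate 1 (0.0575) or cKO replicate 2 (0.0519), and in thinned libraries (0.0899).

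Succinyl-CoA ligase pairs the alpha subunit Suclg1 with either of the beta subunits, Suclg2 of the GTP-forming enzyme or Sucla2 of the ATP-forming enzyme. Suclg1 was 65.9, 43.3 and 53.3 CPM in control and 12.2, 22.2 and 18.4 CPM in cKO. Suclg2 (chromosome 6, 95473009 to 95718800) was 22.6, 24.4 and 21.2 CPM in control and 5.30, 7.62 and 5.63 CPM in cKO. Both fell without overlap, by 1.62 ± 0.22 (adjusted p = 5.21e-05) and 1.88 ± 0.20 (adjusted p = 3.93e-06), which is 3.08- and 3.69-fold. Sucla2 was 13.5, 17.2 and 17.0 CPM in control and 10.7, 13.3 and 8.77 CPM in cKO, where the highest cKO library nearly met the lowest control. It fell by 0.55 ± 0.20 (adjusted p = 0.0392), a call lost without control replicate 2 (0.130), control replicate 3 (0.122), cKO replicate 1 (0.0780) or cKO replicate 3 (0.204), and with no filter on low counts (0.0549).

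Fh1, fumarase, fell from 17.0 ± 1.08 to 11 ± 0.350 CPM (SD, n = 3 each; log2 fold change -0.63 ± 0.17, SE; adjusted p = 0.00874). The malate dehydrogenases parted. Mdh1, the cytosolic enzyme of the malate-aspartate shuttle, was 77.0, 63.2 and 71.1 CPM in control and 22.1, 41.8 and 27.3 CPM in cKO, and fell by 1.21 ± 0.21 (adjusted p = 0.000321). The fall was seen in every cKO library and was smallest in replicate 2. Mdh2, the enzyme within the cycle, was 56.1 ± 1.83 and 52.4 ± 4.21 CPM and did not pass (-0.10 ± 0.15; adjusted p = 0.623).

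**Figure D2:**
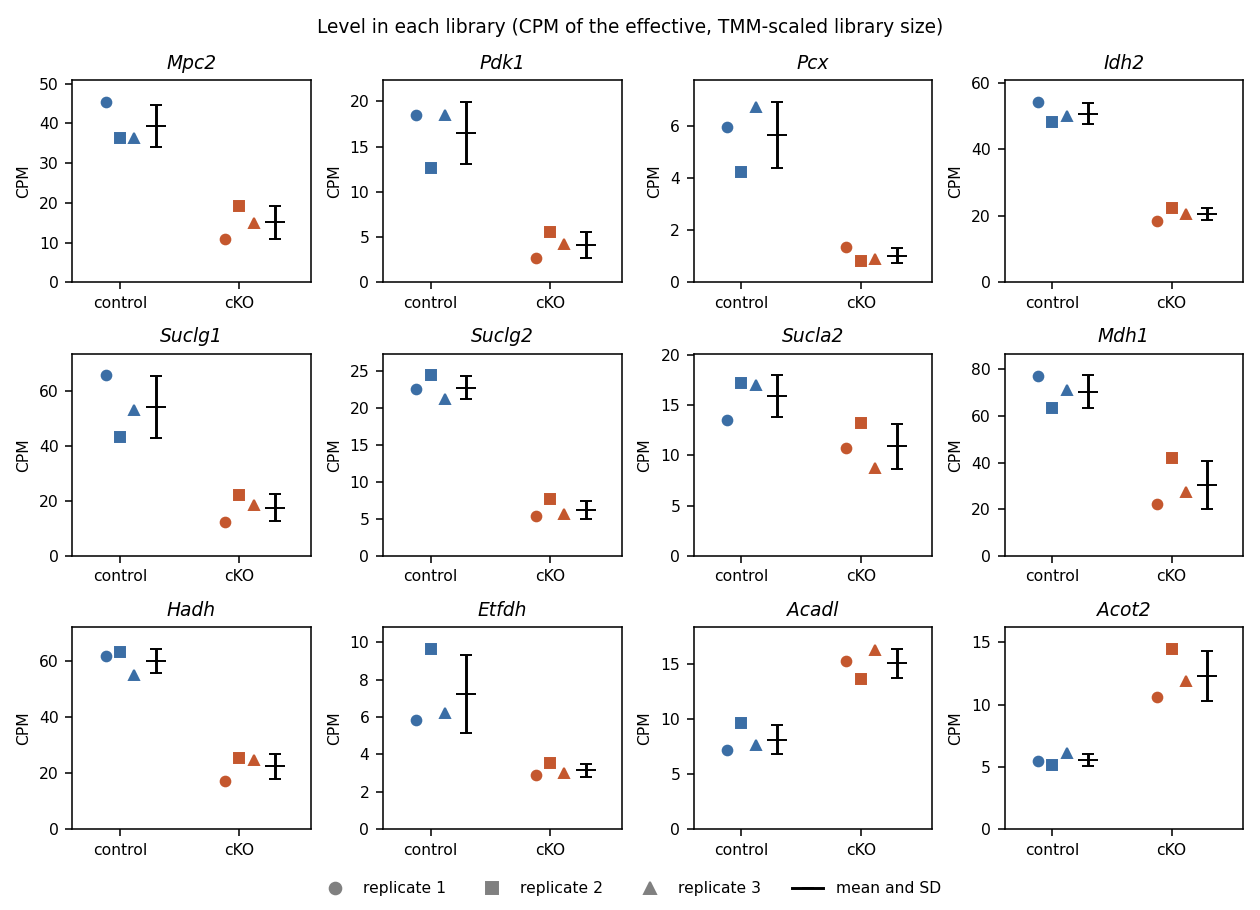
CPM of the effective library size in each of the 6 libraries for 12 genes, with the mean and SD of each group beside the points. Control lies above cKO without overlap in the first 10 panels, and Acadl and Acot2 are higher in cKO. In all panels but Pcx and Acot2, cKO replicate 2 (square) lies nearest to the controls.

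Beta-oxidation genes moved in both directions. At the entry, Cpt1a makes acylcarnitine at the outer membrane and is the controlled step of the pathway. It was 9.83, 10.4 and 6.85 CPM in control and 13.0, 11.4 and 14.1 CPM in cKO. The groups did not overlap, but the fold change of 0.51 ± 0.21 did not pass (adjusted p = 0.0623), and it passed without cKO replicate 2 (0.60; adjusted p = 0.0318). Cpt2, which turns acylcarnitine back into acyl-CoA inside the mitochondrion, fell by 0.73 ± 0.25 (adjusted p = 0.0289). Its call was lost without control replicate 1 (0.0865), control replicate 3 (0.0994), cKO replicate 1 (0.0971) or cKO replicate 3 (0.0806), and in thinned libraries (0.123).

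Acyl-CoA dehydrogenases carry out the first oxidation on chains of different length, and of the 4 among the 42 genes (Acadl, Acadm, Acadvl and Acads) the long-chain enzyme gene Acadl passed. Acadl (chromosome 1, 66830839 to 66863277) was 7.17, 9.65 and 7.62 CPM in control and 15.3, 13.7 and 16.3 CPM in cKO. It rose by 0.89 ± 0.20 (1.85-fold; adjusted p = 0.0021). Acadm, the medium-chain enzyme gene, was 7.70, 6.24 and 8.0 CPM in control and 4.39, 6.45 and 5.52 CPM in cKO, which overlap (-0.43 ± 0.25; adjusted p = 0.177). The very-long-chain enzyme gene Acadvl (-0.46 ± 0.21; adjusted p = 0.0908) and the short-chain enzyme gene Acads (0.10 ± 0.21; adjusted p = 0.710) did not pass either, though Acadvl did in thinned libraries (-0.71; adjusted p = 0.0182).

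Of the genes of the later steps, Hadh and Echs1 fell, and Hadha, Hadhb and Acaa2 did not pass. Hadh, the hydroxyacyl-CoA dehydrogenase for medium and short chains (chromosome 3, 131233419 to 131272101), was 61.6, 63.1 and 55.0 CPM in control and 17.3, 25.3 and 24.7 CPM in cKO. Echs1, the short-chain enoyl-CoA hydratase gene, was 25.6, 25.5 and 20.2 CPM in control and 13.4, 13.9 and 12.9 CPM in cKO. Both fell without overlap, Hadh by 1.42 ± 0.17 (2.67-fold; adjusted p = 1.52e-05) and Echs1 by 0.82 ± 0.17 (adjusted p = 0.00113). Hadha and Hadhb encode the trifunctional protein, which performs these steps on long chains at the inner membrane. Hadha was 18.3, 18.2 and 23.6 CPM in control and 19.2, 16.5 and 19.2 CPM in cKO (-0.13 ± 0.17; adjusted p = 0.569). Hadhb had a fold change of 0.22 ± 0.31 (adjusted p = 0.590) and the matrix thiolase gene Acaa2 of 0.30 ± 0.17 (adjusted p = 0.168).

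Auxiliary enzymes handle unsaturated fatty acids. Eci1, an enoyl-CoA isomerase gene, was 9.83, 14.2 and 15.9 CPM in control and 8.35, 9.04 and 7.88 CPM in cKO, and fell by 0.66 ± 0.21 (adjusted p = 0.0192). The call was lost without control replicate 2 (0.0724), control replicate 3 (0.102) or cKO replicate 3 (0.0836). Its relative Eci2 (0.39 ± 0.24; adjusted p = 0.209) and the dienoyl-CoA reductase gene Decr1 (0.28 ± 0.22; adjusted p = 0.329) did not pass.

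Electrons from the acyl-CoA dehydrogenases pass through the electron transfer flavoprotein, made of Etfa and Etfb, to its membrane-bound oxidoreductase Etfdh. Etfdh was 5.84, 9.65 and 6.22 CPM in control and 2.89, 3.56 and 3.0 CPM in cKO, and Etfa was 8.10, 8.12 and 13.8 CPM against 5.42, 5.82 and 5.67 CPM. Both fell without overlap, Etfdh by 1.21 ± 0.28 (2.31-fold; adjusted p = 0.00263) and Etfa by 0.83 ± 0.25 (adjusted p = 0.0129). Control replicate 3 was high for Etfa, and without it the fold change was -0.52 (adjusted p = 0.103). Etfb, the partner of Etfa in the dimer, was 54.3 ± 8.95 and 45.7 ± 5.57 CPM (SD, n = 3 each) and did not pass (-0.25 ± 0.17; adjusted p = 0.248). Without control replicate 3 the beta-oxidation genes called lower were 3 in place of 6, with Cpt2, Eci1 and Etfa lost.

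Acot2, a mitochondrial thioesterase that frees fatty acids from their CoA esters (chromosome 12, 83987861 to 83993873), had the highest fold change of the 42 genes. It was 5.45, 5.18 and 6.09 CPM in control and 10.6, 14.5 and 11.8 CPM in cKO, with every cKO library far above the controls. It rose by 1.14 ± 0.22 (2.20-fold; adjusted p = 0.000674). Acot2 and its neighbour Acot1 are close relatives, so how reads were divided between them is uncertain. The strand setting of the counting is not given in the sources used here, and 9 of the 42 genes have a gene on the opposite strand at their 3' end whose reads could have been counted with theirs: Mpc1, Pdha1, Pdk2, Idh3b, Idh3g, Acadvl, Hadha, Eci2 and Etfdh.

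Ratios of 2 genes in the same library do not depend on how libraries are scaled, and 6 such ratios were compared with exact 2-sided permutation tests, for which 0.1 is the smallest p that 3 libraries against 3 can give. The ratio of Suclg2 to Sucla2 counts was 1.67, 1.42 and 1.25 in control and 0.496, 0.575 and 0.643 in cKO. The GTP-type subunit thus gave more tags than the ATP-type in each control library and fewer in each cKO library, a 2.52-fold shift (log2 difference -1.33; exact p = 0.1, adjusted over the 6 ratios 0.12). The ratio of Pcx to Pdha1, the enzymes that send pyruvate to oxaloacetate or to acetyl-CoA, was 0.207, 0.140 and 0.242 in control and 0.0740, 0.0373 and 0.0496 in cKO, 3.71-fold lower (exact p = 0.1, adjusted 0.12). The ratio of Hadh to Hadha was 3.36, 3.46 and 2.33 in control and 0.901, 1.53 and 1.28 in cKO, 2.48-fold lower, also without overlap (exact p = 0.1, adjusted 0.12).

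The remaining ratios ran the other way or overlapped. Cpt1a to Cpt2 was 1.23, 1.83 and 0.831 in control and 3.30, 2.44 and 3.07 in cKO, a 2.36-fold higher ratio without overlap (exact p = 0.1, adjusted 0.12). Pdk4 to Pdk2 was 0.0222, 0.0417 and 0.0480 in control and 0.131, 0.0984 and 0.207 in cKO (3.50-fold higher; exact p = 0.1, adjusted 0.12), on the few Pdk4 counts given above. Idh2 to Idh3a was 3.96, 3.14 and 2.55 in control and 2.69, 2.09 and 2.48 in cKO, which overlap (log2 difference -0.39; exact p = 0.2, adjusted 0.2).

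**Figure D3:**
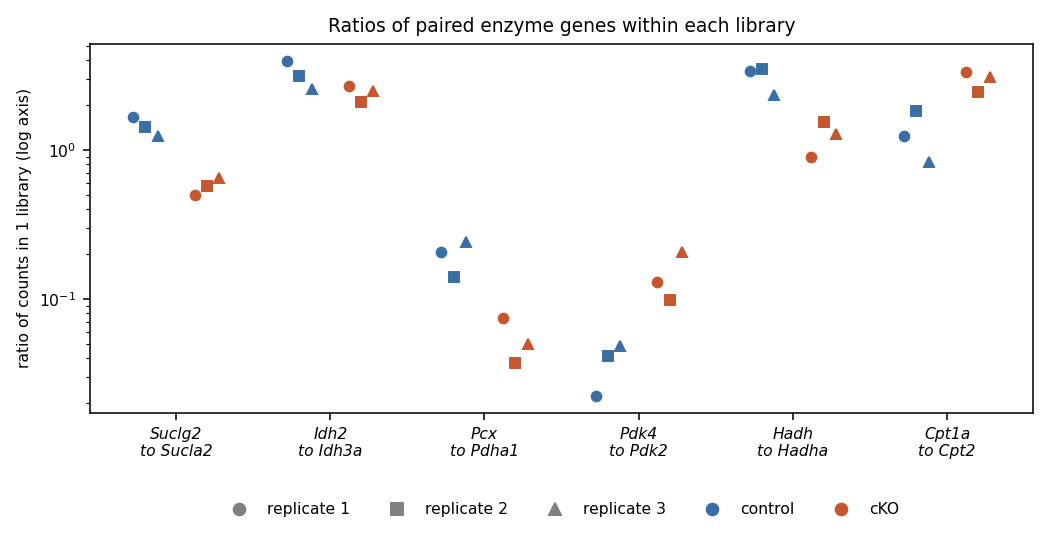
Ratio of the counts of 2 genes within each library, on a log axis, for the 6 pairs. Control and cKO libraries do not overlap in 5 pairs. Overlap was not counted for other gene pairs, so this cannot be read as particular to these. Suclg2 to Sucla2 is above 1 in each control library (1.25 to 1.67) and below 1 in each cKO library (0.496 to 0.643).

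Summed over each pathway, the levels showed the same dependence on scale. The pyruvate genes summed to 167 ± 8.43 CPM in control and 80.4 ± 12.4 in cKO, the TCA cycle genes to 414 ± 24.7 and 236 ± 23.7, and the beta-oxidation genes to 283 ± 4.26 and 230 ± 6.23 (SD, n = 3 each). As a share of counts outside the digestive enzymes, Rn45s and Casp9, pyruvate genes took 0.0496% ± 0.00149 in control and 0.0421% ± 0.00464 in cKO. The TCA cycle took 0.123% ± 0.00472 and 0.124% ± 0.00708, and beta-oxidation 0.0842% ± 0.00129 and 0.121% ± 0.00250 (SD, n = 3 each). As a share of all counts each pathway was larger in cKO. Beta-oxidation genes took 0.00873% (95% Clopper-Pearson interval 0.00837 to 0.00911), 0.00938% (0.00901 to 0.00977) and 0.00981% (0.00941 to 0.0102) in control, and 0.0876% (0.0861 to 0.0891), 0.0462% (0.0452 to 0.0472) and 0.0841% (0.0827 to 0.0855) in cKO. The intervals cover counting error only.

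**Figure D4:**
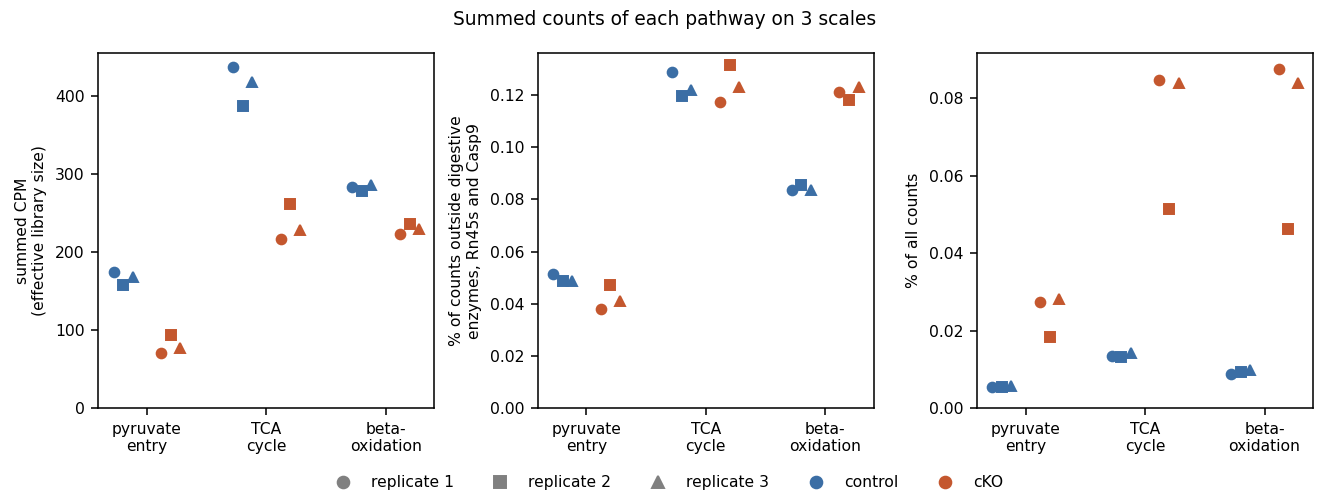
Summed counts of the pyruvate, TCA cycle and beta-oxidation genes in each library as CPM of the effective size, as a percentage of counts outside digestive enzymes, Rn45s and Casp9, and as a percentage of all counts. The pathways are lower in cKO on the first scale, and all are higher on the third. On the second, beta-oxidation is higher without overlap (0.0842% in control against 0.121% in cKO on average). Pyruvate is lower without overlap there (0.0496% against 0.0421%), and the TCA cycle overlaps.

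The cKO libraries were not alike. Replicate 2 had the highest CPM of the 3 cKO libraries for 29 of the 42 genes and for 21 of the 25 that fell. This order was not counted over all tested genes, so it cannot be read as particular to the 42. Among the cKO libraries replicate 2 also held the most acinar marker counts (83342 CPM, against 16818 and 23652). Its macrophage marker counts were the fewest (214 CPM, against 442 and 375). Without replicate 2, 24 of the 25 genes that fell kept their call. The median of the 42 genes minus that of all tested genes was then -0.80, against -0.69 with all libraries.

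Other genes of the same pathways, from lists that do not overlap the 42, were read from the same fit. Of 14 tested further pyruvate genes 3 fell and 3 rose (median -0.34). That is 21.4% each way, near the 20.7% lower and 24.0% higher of all tested genes. Fdx1, a ferredoxin, and Lias, lipoic acid synthase, act in making the lipoyl groups that the E2 subunits carry, and fell by 1.71 ± 0.22 and 0.55 ± 0.19. Gpt2, the mitochondrial alanine transaminase gene, fell by 1.06 ± 0.22. The lactate dehydrogenase genes Ldha (0.55 ± 0.16) and Ldhb (1.23 ± 0.38) and the mitochondrial phosphoenolpyruvate carboxykinase gene Pck2 (0.62 ± 0.23) rose. The call of Lias was lost when any of control replicates 2 and 3 and cKO replicates 1 and 3 was left out (adjusted p = 0.0508 to 0.157), that of Ldha without any of control replicates 2 and 3 and cKO replicate 3 (0.0501 to 0.0627), that of Ldhb without cKO replicate 1 (0.111), and that of Pck2 when any of the 3 control libraries or cKO replicate 2 was left out (0.109 to 0.137). In thinned libraries Lias (0.0501) and Ldhb (0.0709) lost theirs. Pck2 was at 0.28 without cKO replicate 2.

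Of 18 tested further TCA cycle genes 8 fell and 0 rose (median -0.56, with 10 lower and 0 higher at an unadjusted p under 0.05). The share that fell was 44.4%, against 20.7% of all tested genes. Of succinate dehydrogenase, which is also complex II of the respiratory chain, the iron-sulfur subunit gene Sdhb fell from 111 ± 8.16 to 40.9 ± 13.5 CPM (-1.44 ± 0.21). The membrane anchor gene Sdhc fell as well (-1.04 ± 0.16). Sdha fell by less (-0.51 ± 0.18, adjusted p = 0.0292), and Sdhd did not pass (-0.50 ± 0.21, adjusted p = 0.0737). Nnt, the transhydrogenase that makes NADPH from NADH, fell by 1.29 ± 0.19. C57BL/6J mice are known to carry a deletion within Nnt, and these are 3' tags.

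Of 23 tested further genes of mitochondrial fatty acid use 9 fell and 6 rose (median -0.03). These shares were 39.1% and 26.1%, against 20.7% and 24.0% of all tested genes. Acadsb (-2.10 ± 0.19), Hsd17b10 (-1.54 ± 0.17) and Acat1 (-1.33 ± 0.17) fell. The acylcarnitine carrier gene Slc25a20, which works between Cpt1a and Cpt2, rose from 2.16 ± 0.780 to 6.77 ± 0.989 CPM (1.66 ± 0.32). Acsl4, an acyl-CoA synthetase gene for polyunsaturated chains, rose from 16.0 ± 1.19 to 40.9 ± 7.89 CPM (1.35 ± 0.18). Its relative Acsl1 fell (-1.09 ± 0.26, adjusted p = 0.00354), and Acsl3 (-0.064 ± 0.35) and Acsl5 (0.32 ± 0.21) did not pass. Cpt1c, a relative of Cpt1a known from brain, was among the rises with 1 count in the control libraries together and 215 in cKO, a ratio of 33.7 with a counting interval of 5.98 to 1336.

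Of 13 tested peroxisomal genes, which shorten very long chains outside mitochondria, 4 fell and 2 rose (median -0.22). These shares were 30.8% and 15.4%, against 20.7% and 24.0% of all tested genes. The membrane transporter gene Abcd3 (-0.83 ± 0.18), the thiolase and lipid carrier gene Scp2 (-0.82 ± 0.18) and the reductase gene Decr2 (-0.84 ± 0.17) fell. Abcd2, a transporter of the same family as Abcd3, rose (1.64 ± 0.50), and lost its call without cKO replicate 3 (adjusted p = 0.108) and in thinned libraries (0.080). Acox2, a peroxisomal oxidase gene, had 0 counts in all control libraries and 19, 36 and 64 in cKO, at least 6.21-fold higher against 3 counts over the control group.

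Of 6 tested genes of the ERR and PPAR receptors and PGC-1 coactivators 3 fell and 0 rose (4 lower and 0 higher at an unadjusted p under 0.05). The share that fell was 50%, against 20.7% of all tested genes. Ppara, the fatty acid sensor that drives beta-oxidation genes in liver, fell from 4.41 ± 0.656 to 0.904 ± 0.226 CPM (-2.29 ± 0.39), and Ppard fell by 1.24 ± 0.29. Ppargc1a, the coactivator gene PGC-1 alpha, fell by 3.67 ± 0.90 on 7, 26 and 12 tags in control against 0, 9 and 11 in cKO.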

How the data were processed

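The libraries, 3 control and 3 cKO, read 3' tags of RNA from mouse pancreatic acinar cells. The authors deposited raw counts per gene symbol for each library; the submitters' processing notes list Bowtie2 and edgeR as tools and mm10 (GRCm38) as build, with no role, and the counting tool is not given in the sources used here. Symbols in the deposited tables end at 12 characters, and 36 symbols stand on 81 rows, none of them among the 42 genes. Groups follow the sample titles and genotypes.

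The counts were tested with edgeR 4.0.16 (R 4.3.3; default low-count filter with a minimum of 10 counts, TMM scaling, robust quasi-likelihood F test) over 13132 rows, with Benjamini-Hochberg adjustment and a threshold of 0.05. SEs are the fold change divided by the square root of F. The procedure was tested on simulated data, where it recovered 98% of genes changed by 2 on the log2 scale in either direction. It recovered 34% of those lowered by 1 and 48% of those raised by 1. The simulation changed 50 of 11800 genes at each size and direction, a far smaller part than the 44.7% called in the data. The adjusted threshold depends on that part, so these rates do not measure recovery in the data. A gene that did not pass may still have changed. Ratios used an added count of 0.5 in the log2 differences. Gene positions are from GENCODE (GRCm38). Alternatives were other scalings, DESeq2 1.42.0, other filters, thinned libraries, a replicate block and leaving out each library.

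Each of the 42 genes is given with a fold change. Full values are given for up to 5 lower and 3 higher genes per pathway with the smallest p, and for 10 gate enzymes. From the other lists up to 3 genes in each direction are named, and the 2 most abundant markers. Pdk3, Sdha, Sdhd, Acsl1, Acsl3 and Acsl5 are named besides, next to their relatives, without their values in the alternatives. Members and lists were chosen with earlier results of these data known.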

Additional observations from a re-analysis of the deposited data

How the results depend on the processing

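The scale of the libraries turned more results than any other choice tried. On library totals 12653 of all tested genes were called higher and 53 lower; for the 42 genes 41 were higher and 0 lower (pyruvate 10 and 0, TCA cycle 13 and 0, beta-oxidation 18 and 0). The medians became 2.65 (all 42), 2.01, 2.63 and 3.08. The log2 fold changes that changed sign there were Mpc1 2.01, Mpc2 1.81, Pdha1 2.65, Pdhb 2.85, Pdhx 2.14, Dlat 2.81, Dld 2.0, Pdk1 1.18, Pdk2 1.89, Pcx 0.85, Cs 2.78, Idh2 1.94, Idh3a 2.28, Idh3b 2.25, Idh3g 3.03, Ogdh 2.83, Dlst 2.70, Sucla2 2.66, Suclg1 1.58, Suclg2 1.33, Fh1 2.63, Mdh1 1.95, Mdh2 3.15, Cpt2 2.52, Acadm 2.79, Acadvl 2.78, Hadh 1.81, Hadha 3.16, Echs1 2.44, Eci1 2.58, Etfa 2.42, Etfb 2.99, Etfdh 2.02, Ppara 0.93, Ppard 1.98, Acadsb 1.09, Hsd17b10 1.69, Acat1 1.88, Fdx1 1.48, Gpt2 2.19, Lias 2.68, Nnt 1.97, Sdhb 1.73, Sdhc 2.20, Decr2 2.40, Abcd3 2.41, Scp2 2.44, Fabp4 2.55, Sox9 1.39, Spp1 3.13, Kdr 1.85, Pecam1 2.63, Ins2 3.12 and Ins1 2.87. With counts outside the digestive enzymes, Rn45s and Casp9 as library size, 7103 genes were called higher and 1003 lower, among them 12 and 7 of the 42 (pyruvate 0 and 3, TCA cycle 2 and 3, beta-oxidation 10 and 1). The medians of all 42, TCA cycle and beta-oxidation genes became 0.23, 0.20 and 0.63, and the pyruvate median moved from -1.21 to -0.39. Of the other genes named, Ppard (-0.42), Gpt2 (-0.25), Sdhc (-0.23), Decr2 (-0.019) and Abcd3 (-0.014) kept their sign but lost their calls. Their adjusted p ran from 0.225 to 0.950. The fold changes that changed sign were Pdha1 0.23, Pdhb 0.41, Dlat 0.43, Cs 0.33, Idh3g 0.56, Ogdh 0.38, Dlst 0.24, Sucla2 0.26, Fh1 0.20, Mdh2 0.72, Cpt2 0.096, Acadm 0.39, Acadvl 0.35, Hadha 0.70, Eci1 0.16, Etfb 0.57, Lias 0.27, Scp2 0.0021, Fabp4 0.16, Spp1 0.67, Pecam1 0.27, Ins2 0.75 and Ins1 0.51. As shares of those counts, cKO minus control was -0.00744 percentage points for pyruvate genes, 0.000536 for the TCA cycle and 0.0366 for beta-oxidation, against 0.0192, 0.0597 and 0.0633 of all counts. With at least 10 CPM in 3 libraries, 30 of the 42 genes were tested, 4 higher and 15 lower (TCA cycle 7 lower; beta-oxidation 4 higher, 2 lower), and 1443 and 1425 of all genes. The beta-oxidation median became 0.20, with Mdh2 at 0.12, Hadha at 0.086, Spp1 at 0.069 and Ins2 at 0.16. Cs, Ogdh, Dlst, Sucla2, Lias and Fabp4 lost their calls there (adjusted p = 0.0993 to 0.188), and Cpt1a (0.73) and Acaa2 (0.52) were called higher.

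Leaving out each library in turn gave 2388 to 3411 genes higher and 2077 to 2829 lower, with 2 to 3 and 19 to 24 of the 42. The pyruvate genes called lower were 7 to 8, the TCA cycle genes 8 to 10 and the beta-oxidation genes 3 to 6. Fold changes ranged from -0.0044 to 0.26 for Acads and from -0.19 to 0.0057 for Hadha. Those of the insulin genes ranged from -0.29 to 0.22 (Ins2, above 0 without control replicate 2 or cKO replicate 1) and from -0.56 to 0.010 (Ins1). DESeq2 and its size factors made the same 25 and 2 calls among the 42.

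Same-numbered libraries did not deviate together (correlations -0.030 to 0.014). With 3 libraries per group this cannot exclude a pairing, and the sources used here state none. With the replicate number as a block 2884 genes were higher and 2505 lower, with 2 and 24 of the 42.

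Depth limits Pdk4, Cfd, Ppargc1a, Acox2 and Cpt1c most, whose control counts are given with their results. The causes of the changes with scale were not tested.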

Other observations

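Acadsb, Hsd17b10 and Acat1, which fell among the further genes of fatty acid use, are also known as enzymes of isoleucine breakdown. Acadsb, the short and branched chain acyl-CoA dehydrogenase gene, gave 486, 575 and 538 tags in control against 711, 656 and 900 in cKO, or 66.8 ± 2.0 and 15.6 ± 3.93 CPM (SD, n = 3 each). Hsd17b10 was at 29.0 ± 2.21 and 10.01 ± 1.33 CPM and Acat1 at 52.4 ± 1.33 and 20.9 ± 4.36 CPM. Raw counts were higher in cKO for all 3 genes, and the falls are on the TMM scale. This grouping was chosen after the values were seen.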
